A study of Mus musculus with 947 samples.

Results

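The microRNAs (miRNAs) mmu-miR-451a, mmu-miR-144-3p, mmu-miR-144-5p and mmu-miR-486a-5p, written below without the species prefix, were followed by name through small RNA sequencing libraries of mouse tissue. They are 4 of the 1076 miRNAs deposited for the aging cohort and 4 of the 795 deposited for the parabiosis cohort. The aging cohort, called Tabula Muris Senis, comprised 769 libraries of 16 tissues from C57BL/6JN mice, 553 from males and 216 from virgin females. Its 10 ages were 1 month and steps of 3 months from 3 to 27 months, with males only at 24 and 27 months. Its groups of a tissue and an age held 1 to 6 libraries, and its tissues 31 to 56. Adipose tissue was taken as brown (BAT) and 3 white depots, gonadal (GAT), subcutaneous (SCAT) and mesenteric (MAT). The parabiosis cohort comprised 176 libraries of GAT, heart, kidney, limb muscle, liver and MAT from 30 male mice, each surgically joined to a partner so that the circulation was shared. Heterochronic aged (HA, 7 mice of 19 months) and heterochronic young (HY, 7 mice of 4 months) animals were the partners of 7 mixed pairs, while isochronic aged (IA, 8 mice of 19 months) and isochronic young (IY, 8 mice of 3 or 4.5 months) animals were joined to a partner of their own age. All HY mice were of another line than the IY mice, per the methods of the study, so the line and the heterochronic young condition cannot be told apart, and HY and IY also differ in age. The IY mice were C57BL/6JN, as were most of the aged mice, some of which were C57BL/6J. In both cohorts blood was taken from the heart and the mice were then perfused with buffered saline before dissection, so the red blood cells of a tissue are those left after that step.

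MicroRNAs are short RNAs that guide Argonaute proteins to messenger RNAs, mainly through the seed, bases 2 to 8 of the mature strand, and lower the output of those messages. The miR-144 and miR-451a precursors are neighbours that are transcribed together under the erythroid factor GATA1, and miR-451a is unusual in being matured by the slicer activity of Argonaute 2 without Dicer. Both are known as highly abundant miRNAs of maturing and circulating red blood cells, which keep small RNA after they lose the nucleus, and miR-486 lies within Ank1, the gene of the red cell membrane protein ankyrin, and is also known in heart and skeletal muscle.

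The mature strands and hairpins of miR-144 and miR-451a are printed to show how these 3 members differ in sequence. From RefSeq (GRCm38.p6), 5′ to 3′ with the seed in capitals, the mature strands of the cluster are:
miR-451a: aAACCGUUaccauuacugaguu
miR-144-3p: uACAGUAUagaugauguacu
miR-144-5p: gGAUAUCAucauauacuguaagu
None of the 3 seeds was shared with another of the 1679 mature names in the table, so each of these strands had a seed of its own. On the plus strand, miR-144-5p lies at chr11:78073010-78073032, miR-144-3p at chr11:78073047-78073066 and miR-451a at chr11:78073186-78073207. The 66-base Mir144 hairpin, at chr11:78073005-78073070, and the 72-base Mir451a hairpin, at chr11:78073170-78073241, are 99 bases apart. With the mature strands in capitals they read:
Mir144: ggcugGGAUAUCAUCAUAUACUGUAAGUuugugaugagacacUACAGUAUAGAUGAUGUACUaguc
Mir451a: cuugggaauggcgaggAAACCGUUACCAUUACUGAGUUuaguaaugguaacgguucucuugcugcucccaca
The miR-144-5p strand fills positions 6 to 28 of its hairpin and miR-144-3p positions 43 to 62, whereas miR-451a at positions 17 to 38 runs into the loop. In GENCODE (GRCm38) the Mir486 gene lies at chr8:23142555-23142682 on the plus strand, within Ank1 at chr8:22974844-23150497, and overlaps Mir3107, the gene of miR-486b, at chr8:23142573-23142662 on the minus strand. The values of miR-486a-5p and miR-486b-5p were equal in 49.2% of the aging libraries, so how their reads were split between them is uncertain, and a value of miR-486a-5p may hold reads of either gene.

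Levels are given in reads per 1000000 mapped reads (rpmm) of the same library. A value counts reads of a whole mature strand, so no correction for length is needed between members. Depth was 2.29 to 166.9 M reads (M for 1000000) with a median of 20.1 M in the aging cohort, and 9.20 to 47.6 M with a median of 20.1 M in the parabiosis cohort. The profile of all miRNAs placed 9 aging and 4 parabiosis libraries closest to a tissue other than their own. Tissue markers had their highest median where the label places them in liver (miR-122-5p), brain (miR-124-3p and miR-9-5p), pancreas (miR-216a-5p, miR-217-5p and miR-375-3p), small intestine (miR-192-5p, miR-194-5p and miR-215-5p), skin (miR-203-3p and miR-205-5p), heart (miR-208a-3p, with miR-1a-3p ranking 2) and limb muscle (miR-1a-3p and miR-206-3p). The white blood cell markers miR-142a-3p and miR-150-5p were highest in spleen, with marrow ranking 2 and 3, and miR-223-3p was highest in marrow, with spleen ranking 4. In kidney miR-192-5p and miR-194-5p ranked 3 of 16 and miR-215-5p ranked 16. miR-451a and miR-144-3p reached 1 rpmm in 10% or more of the libraries, the filter used here, in all 16 tissues, miR-486a-5p in 15 (not pancreas) and miR-144-5p in 13 (not brain, pancreas or small intestine). In the parabiosis cohort every member passed in all 6 tissues, except miR-486a-5p in liver.

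The first question was where the 4 miRNAs are found. All 4 had their highest median in marrow, where red blood cells form. miR-451a, the most abundant member, had a median of 23594 rpmm in 56 marrow libraries (3807 to 79678 rpmm), or 11.7% of all miRNA signal in the median library and 25.1% in the highest. Spleen followed with a median of 5210 rpmm (114 to 32583 rpmm, n = 55) and bone with 3608 rpmm (502 to 11588 rpmm, n = 48). The lowest marrow library was thus above the median of each other tissue except spleen. Lung had a median of 1843 rpmm (114 to 23109 rpmm, n = 55), SCAT 1708 rpmm (162 to 5146 rpmm, n = 44), heart 1448 rpmm (313 to 31345 rpmm, n = 53) and GAT 1148 rpmm (362 to 3419 rpmm, n = 37). Their ranges overlapped, and none of the neighbours in this stretch, from lung to GAT, differed by the test across tissues given below.

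Lower levels of miR-451a followed in limb muscle, with a median of 693 rpmm (75.4 to 1702 rpmm, n = 47), MAT, with 569 rpmm (60.3 to 2993 rpmm, n = 47), kidney, with 484 rpmm (59.4 to 4934 rpmm, n = 51), BAT, with 419 rpmm (41.7 to 2452 rpmm, n = 31), and liver, with 385 rpmm (92.6 to 2628 rpmm, n = 52). The order of these tissues depends on the scaling. As a share of all miRNA signal, the medians were 0.105% in limb muscle, 0.138% in MAT, 0.126% in kidney, 0.149% in BAT and 0.120% in liver. Skin had a median of 222 rpmm (49.3 to 1922 rpmm, n = 47), pancreas 101 rpmm (12.2 to 279 rpmm, n = 45), small intestine 82.7 rpmm (35.3 to 259 rpmm, n = 50) and brain 45.3 rpmm (13.6 to 568.3 rpmm, n = 51). No library of any tissue had miR-451a at 0.

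The strands of miR-144 followed nearly the same order at lower levels. miR-144-3p, the guide strand, ran from a median of 6957 rpmm in marrow (1468 to 21630 rpmm) through 2956 rpmm in spleen, 1496 rpmm in bone and 695 rpmm in lung to 18.8 rpmm in small intestine and 11.2 rpmm in brain (2.68 to 144 rpmm). The other tissues, from SCAT at 335 rpmm to pancreas at 20.4 rpmm, lay between these. miR-144-5p, the passenger strand, ran from 112 rpmm in marrow (17.9 to 421 rpmm) through 30.4 rpmm in spleen and 18.9 rpmm in bone to 0.229 rpmm in brain. It was at 0 in 24 aging libraries, which at their depth allows up to 0.0742 to 1.12 rpmm (the limit of 3 reads, counting error only).

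miR-486a-5p kept marrow on top with a median of 28.9 rpmm (6.38 to 168 rpmm) but placed heart, at 27.0 rpmm (6.77 to 299 rpmm), and limb muscle, at 16.5 rpmm (5.25 to 118 rpmm), next. Bone followed with 8.12 rpmm, spleen with 4.33 rpmm, lung with 2.41 rpmm and SCAT with 1.77 rpmm. Medians were 0.265 to 1.44 rpmm in the other 9 tissues, with pancreas lowest. It was at 0 in 16 aging libraries. Together the 4 members made up a median of 15.8% of miRNA signal in marrow, 3.87% in spleen, 2.91% in bone and 0.0139% in brain. In bulk tissue, fewer red blood cells and less of a miRNA per cell cannot be told apart.

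**Figure D1:**
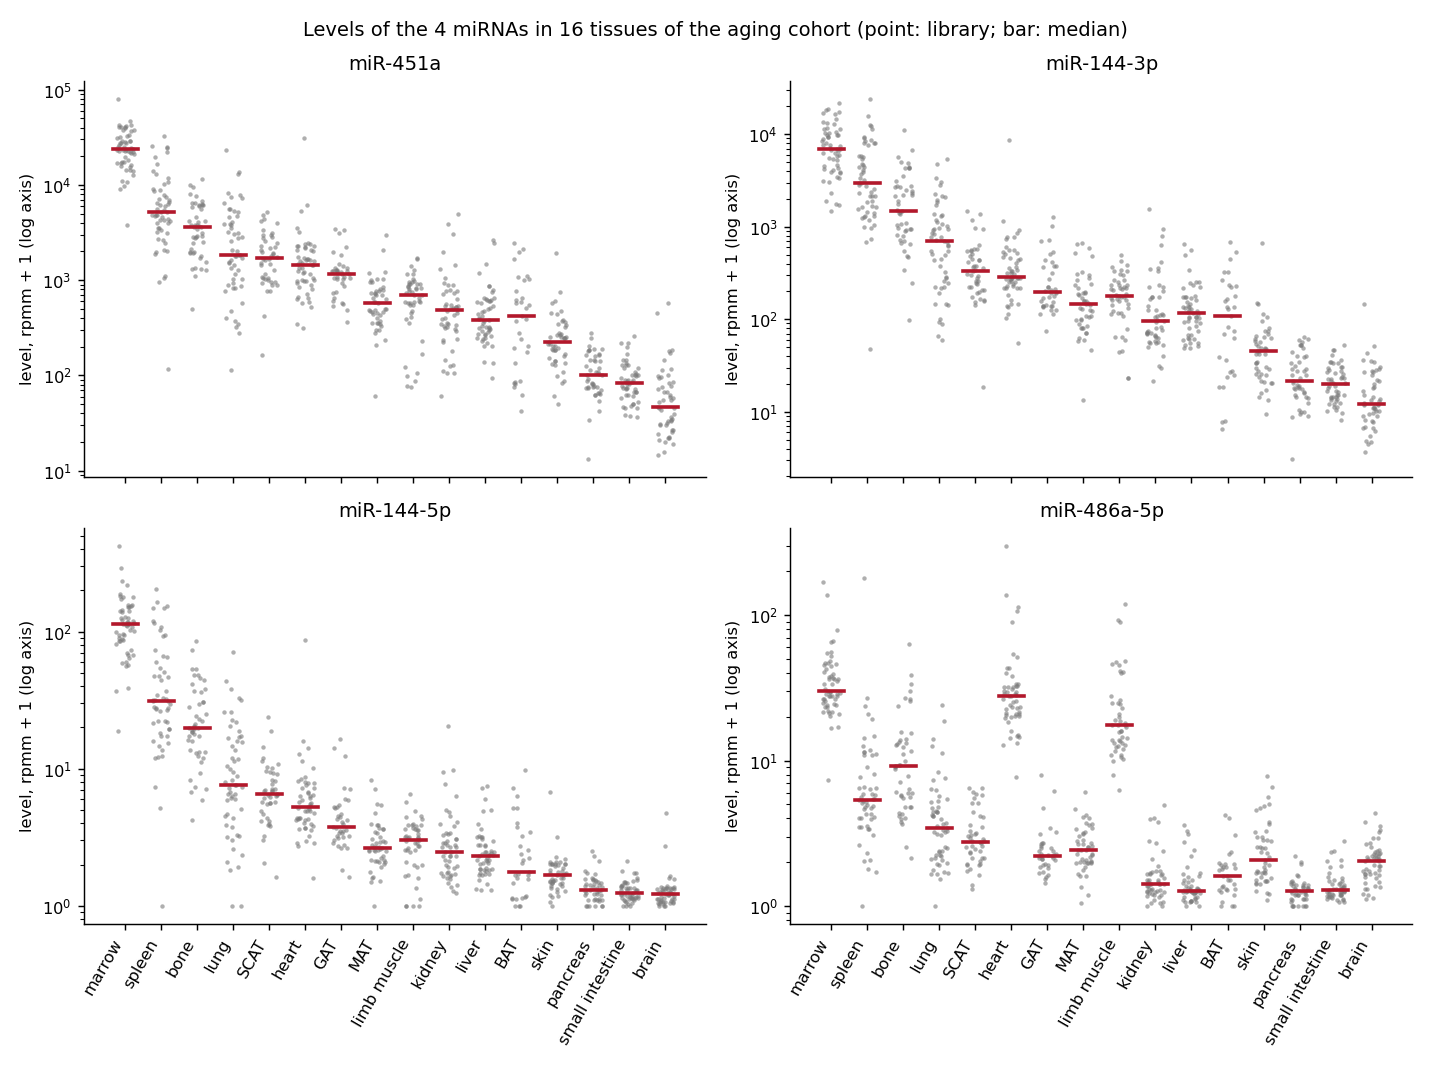
Level of each of the 4 miRNAs (rpmm + 1, log axis) in the 16 tissues of the aging cohort, 1 point a library and a bar at the median. miR-451a, miR-144-3p and miR-144-5p fall from marrow to brain in nearly the same order, while miR-486a-5p has heart and limb muscle beside marrow.

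Differences between tissues were tested with limma on log2(rpmm + 1), for each of the 120 pairs of tissues, with p-values adjusted over all miRNAs. Of the 480 tests of a member, 421 passed an adjusted p of 0.05, where 69.8% of the tests of all miRNAs did. Between neighbours in the order of mean log2 levels, 7 of 15 steps passed for miR-451a, 8 for miR-144-3p and 5 each for miR-144-5p and miR-486a-5p. For miR-451a these steps were marrow above spleen by 2.15 (SE 0.21) on the log2 scale, spleen above bone by 0.65 (SE 0.22), bone above lung by 0.73 (SE 0.22), GAT above MAT by 1.00 (SE 0.24), BAT above skin by 0.68 (SE 0.25), skin above pancreas by 1.18 (SE 0.23) and small intestine above brain by 0.69 (SE 0.22). The other 8 steps, such as MAT over limb muscle by 0.02 (limma adjusted p = 0.961), did not pass. For miR-486a-5p the step from marrow to heart, 0.20, did not pass (limma adjusted p = 0.185), whereas heart over limb muscle by 0.53, limb muscle over bone by 1.14, bone over spleen by 0.59, spleen over lung by 0.72 and lung over SCAT by 0.33 did. None of the 9 steps from SCAT down to pancreas passed for this member.

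In the parabiosis cohort, over all groups, miR-451a had a median of 1130 rpmm in heart (478 to 2551 rpmm, n = 30), 954 rpmm in GAT (159 to 2792 rpmm, n = 30), 693 rpmm in limb muscle (158 to 1267 rpmm, n = 30), 502 rpmm in MAT (86.1 to 1994 rpmm, n = 27), 452 rpmm in kidney (139 to 7510 rpmm, n = 29) and 172 rpmm in liver (73.7 to 1073 rpmm, n = 30). miR-144-3p lay between 242 rpmm in heart and 42.1 rpmm in liver, and miR-144-5p between 3.43 and 0.534 rpmm. miR-486a-5p was again at its highest in heart, with 35.9 rpmm (24.6 to 83.8 rpmm), and limb muscle, with 15.6 rpmm (8.45 to 50.9 rpmm), and had medians of 0.133 to 1.01 rpmm in the other 4 tissues.

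The place of miR-486a-5p in muscle was examined against miR-451a of the same library. The difference of their log2 levels had a median of -9.63 in marrow and -9.93 in spleen, but -5.86 in heart and -5.52 in limb muscle. By the mean difference (-5.63 and -4.78) miR-451a was 49.4 times miR-486a-5p in heart and 27.6 times in limb muscle. In 2 of the 47 limb muscle libraries miR-486a-5p was the more abundant of the pair. Each tissue was then tested with limma against the mean of the other 15, and 14 of 16 tissues passed, 6 higher and 8 lower, where among all miRNAs 45.1% of such tests were called higher and 42.9% lower. These shares are large since a tissue rich in miR-451a lowers nearly every other miRNA on this scale, so each value is read beside the median of all miRNAs in that tissue. Limb muscle was higher by 2.96 (SE 0.16) beside a median of 0.19, and heart by 2.06 (SE 0.15) beside a median of -1.19, with 5.54% of all miRNAs called higher in heart and 29.9% in limb muscle. Brain was higher by 3.02, small intestine by 1.71, pancreas by 1.35 and skin by 1.00, each below its tissue's median of 4.27, 3.18, 2.55 and 1.61. Spleen was lower by 2.35, where the median was lower by 3.21, and marrow by 2.02, where the median was lower by 5.45. SCAT, lung, GAT and bone were also lower (-1.69, -1.65, -1.42 and -1.03), as were liver and kidney (-0.71 each), and the last 2 turned positive with a pseudocount of 10 rpmm (0.31 and 0.18). BAT and MAT, at -0.24 and -0.28, did not pass. The median of miR-486a-5p was 0.599 rpmm in BAT, 0.409 in kidney, 0.278 in small intestine, 0.273 in liver and 0.265 in pancreas. At such levels the pseudocount of 1 rpmm sets much of the difference, so the places of these tissues on this scale are uncertain.

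**Figure D2:**
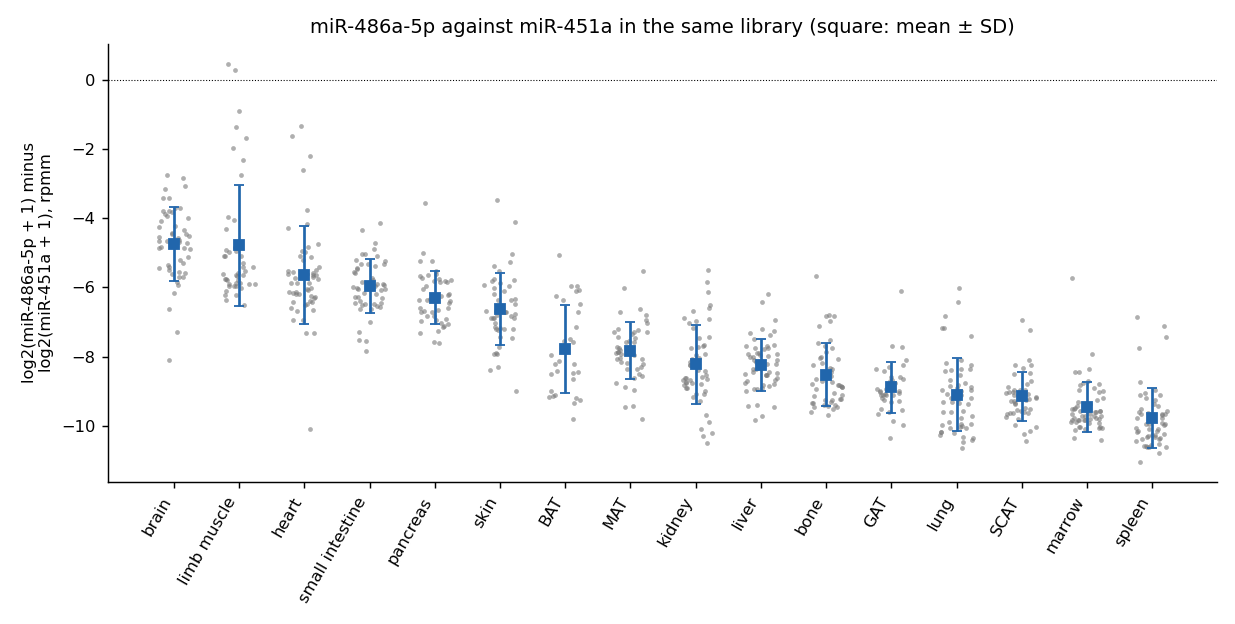
Difference of log2 levels, miR-486a-5p minus miR-451a (rpmm + 1), in each library of the aging cohort by tissue, with a square and bar for the mean ± SD. Limb muscle, brain and heart sit nearest to 0 and marrow and spleen lowest, and 2 limb muscle libraries lie above 0. Where miR-486a-5p is under 1 rpmm, the pseudocount sets much of the difference.

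Within a tissue the members of the cluster moved together. With the tissue and age means removed, Pearson's r over the 769 aging libraries was 0.745 between miR-451a and miR-144-3p, 0.751 between miR-451a and miR-144-5p, and 0.802 between the miR-144 strands. It was 0.394 between miR-451a and miR-486a-5p, with -0.35 to 0.78 in single tissues. In the 176 parabiosis libraries, with tissue and group means removed, the same values were 0.980, 0.935, 0.920 and 0.415. These are descriptions over values that share a library and its depth. With log2 depth itself, r was 0.138 for miR-451a, 0.148 for miR-144-3p, 0.174 for miR-144-5p and -0.197 for miR-486a-5p in the aging cohort, and 0.314, 0.277, 0.225 and -0.073 in the parabiosis cohort.

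The lower r of miR-451a with miR-144-3p in the aging cohort went along with sets of libraries whose titles carry consecutive numbers. The log2 difference of miR-144-3p minus miR-451a had a median of -1.98 over the 78 sets of at most 12 consecutive numbers of a tissue that held 3 or more libraries. In 72 of these sets the median lay between -2.98 and -0.88, and miR-144-3p was the more abundant in 1 of their 707 libraries. In the other 6 sets, of 60 libraries, it was the more abundant in 27. These sets were spleen numbers 37 to 48 (median 0.47) and 49 to 56 (1.12), bone 13 to 24 (-0.05), lung 37 to 48 (-0.25), MAT 49 to 56 (-0.34) and kidney 1 to 12 (-0.60). They were picked out by these values after the data were seen, and their number alone joins them, so what sets them apart was not tested.

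In spleen, the 35 libraries numbered up to 36 had a log2 difference of -2.31 to -0.98, with median levels of 6950 rpmm for miR-451a and 2145 rpmm for miR-144-3p. The 20 libraries numbered above 36 had a difference of -2.83 to 2.17, with medians of 3451.5 and 4914 rpmm, and miR-144-3p was the higher in 15 of them. The pair is thus not in a fixed ratio between libraries of one tissue. With the means of tissue and set removed, and age left in, r was 0.885 between miR-451a and miR-144-3p and 0.830 between miR-451a and miR-144-5p. It was 0.824 between the miR-144 strands and 0.396 between miR-451a and miR-486a-5p. These values differ from those above both in the sets removed and in the age kept. In the parabiosis libraries the median difference lay between -2.45 and -2.02 in the 6 tissues, and miR-144-3p was the higher in 0 of 176 libraries. Relative to miR-451a and with the same limma test, miR-144-3p was higher in spleen by 1.17 (SE 0.11) and in bone by 0.82 (SE 0.12), and lower in skin (-0.54), SCAT (-0.44), GAT (-0.37), pancreas (-0.28) and heart (-0.24). The medians of all miRNAs beside these were -3.21, -2.59, 1.61, -1.23, -0.59, 2.55 and -1.19. Skin and pancreas thus lay below their tissue's median, and the other tissues named lay above it. Without the 6 sets, spleen and bone still passed, with values of at least 0.42 and 0.59.

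**Figure D3:**
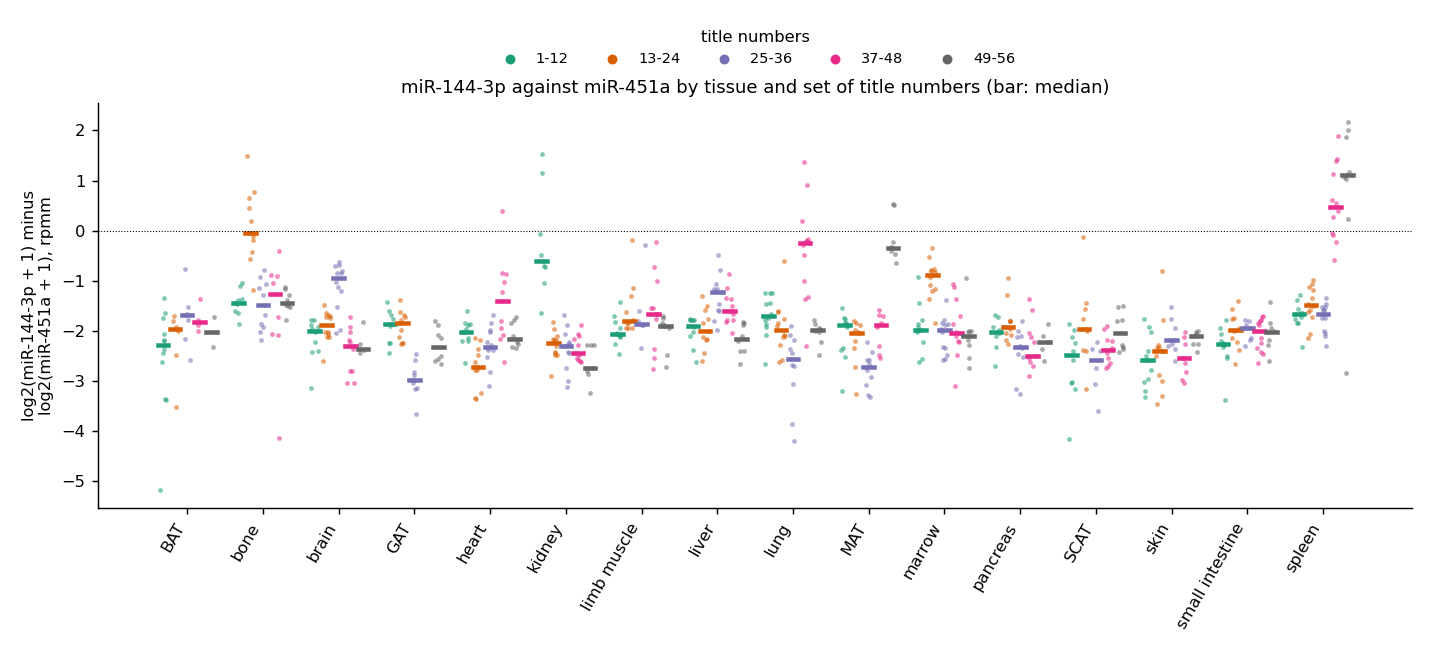
Difference of log2 levels, miR-144-3p minus miR-451a (rpmm + 1), in each library of the aging cohort by tissue and by set of 12 title numbers (colours), with a bar at the set median. Most sets lie near -2, and the spleen sets above number 36 lie around or above 0.

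The spread between libraries of the same tissue and age was wide for the cluster. The residual SD of log2(rpmm + 1) had a median over tissues of 0.97 for miR-451a (0.70 to 1.54) and 1.07 for miR-144-3p (0.65 to 1.60), at the 81.5 and 87.5 percentile of the miRNAs with a mean of at least 10 rpmm in that tissue. It was 0.68 for miR-144-5p and 0.57 for miR-486a-5p, whose levels near the pseudocount hold the log2 scale down.

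By the likeness of the 16 tissue medians, the miRNAs nearest to miR-451a were miR-15a-3p (Pearson's r = 0.854), miR-223-5p (0.836), miR-223-3p (0.827), miR-450b-5p (0.816) and miR-15b-3p (0.787). miR-223 is a miRNA of granulocytes and monocytes and is, like the cluster, highest in marrow. The nearest to miR-144-3p were miR-15a-3p (0.857), miR-223-5p (0.835), miR-223-3p (0.812), miR-150-3p (0.801) and miR-15b-3p (0.799), and to miR-144-5p miR-223-5p (0.908), miR-15a-3p (0.895), miR-223-3p (0.848), miR-15b-3p (0.848) and miR-106b-3p (0.836). For miR-486a-5p they were the other products of its locus, miR-486b-5p (1.00), miR-486a-3p (0.946) and miR-486b-3p (0.891), and then miR-149-5p (0.698) and miR-1a-2-5p (0.662). Over the 769 libraries, with tissue and age means removed, the nearest to miR-451a were miR-15b-3p (0.718), miR-350-3p (0.651), miR-30b-5p (0.633), miR-199a-5p (0.629) and miR-223-3p (0.625). To miR-144-3p they were miR-19a-3p (0.634), miR-32-5p (0.619), miR-33-5p (0.591), miR-29b-3p (0.578) and miR-142a-5p (0.545), to miR-144-5p miR-15b-3p (0.575), miR-19a-3p (0.509), miR-18a-5p (0.482), miR-142a-3p (0.479) and miR-340-5p (0.474), and to miR-486a-5p miR-486b-5p (0.996), miR-511-3p (0.539), miR-345-5p (0.530), miR-326-3p (0.529) and miR-151-3p (0.523).

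Marker lists gave a scale for these values. Over the same libraries r with miR-451a was 0.091 to 0.591 (median 0.422) for 18 further miRNAs of red blood cells, 0.237 to 0.625 (median 0.321) for 8 of white blood cells, 0.318 to 0.432 (median 0.423) for 4 of vessels and -0.025 to 0.287 (median 0.170) for 7 of muscle. All points share depth and scaling, so these are descriptions. Over the tissue medians the red blood cell list did not follow miR-451a as a whole. There r was -0.74 for miR-182-5p, -0.75 for miR-183-5p and -0.71 for miR-96-5p, all highest in brain. It was -0.46 for let-7b-5p, -0.06 for miR-22-3p and 0.002 for miR-185-5p. For the rest of that list it was 0.38 to 0.72.

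The second question was whether the levels followed age. Spearman's rho with age exceeded 0.5 in either direction in 0 of 60 tests of a member in a tissue, where 8.06% of all tests did. It lay between -0.32 and 0.25 for miR-451a, -0.42 and 0.22 for miR-144-3p, -0.23 and 0.34 for miR-144-5p and -0.42 and 0.35 for miR-486a-5p. The permutation p was under 0.05 in 5 of the 60 tests and the adjusted p in 3, where 18.2% of all tests had an adjusted p under 0.05. These 3 were miR-486a-5p in marrow (rho -0.42, permutation p adjusted to 0.0131; Pearson's r -0.35, adjusted to 0.0476), miR-144-3p in limb muscle (rho -0.42, permutation p adjusted to 0.0141; r -0.36, adjusted to 0.0585) and miR-486a-5p in liver (rho 0.35, permutation p adjusted to 0.0467; r 0.18). Without the 2 libraries of farthest age, rho was -0.40 (permutation p adjusted to 0.0271), -0.45 (adjusted to 0.00908) and 0.32 (adjusted to 0.0990), so the liver value no longer passed, and miR-451a in limb muscle then passed (rho -0.38, adjusted to 0.0431).

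The age groups past 3 months were each set against the 3-month group, the young adult reference, by limma within each tissue. Of 424 tests of a member 4 passed, all lower at the later age in this scaling, where 1.5% of all tests of miRNAs did so in that direction. All 4 were at 15 months, 3 in skin and 1 in limb muscle, and in these 2 comparisons many miRNAs were lower, 17.3% of those tested in skin and 22.2% in limb muscle. The median change of all miRNAs was -0.51 in skin and -0.45 in limb muscle on the log2 scale. Scaled to summed miRNA values, the 3 skin calls were lost, and in MAT at 27 months miR-451a was called higher by 1.33 (limma adjusted p = 0.0369) and miR-144-5p by 1.05 (adjusted p = 0.0381), where the reported scaling gave 0.84 (adjusted p = 0.250) and 0.71 (adjusted p = 0.169).

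In skin miR-451a measured 335.2, 471.1, 751.7, 139.8, 200.8 and 343.9 rpmm at 3 months and 167.7, 49.3, 139.2, 82.9, 108.0 and 133.1 rpmm at 15 months. The groups overlapped only through the library of 139.8 rpmm at 3 months. It fell by 1.61 on the log2 scale (SE 0.43, limma adjusted p = 0.00993). miR-144-3p measured 68.6, 57.9, 150.4, 28.4, 33.5 and 78.9 rpmm at 3 months and 19.9, 8.58, 27.7, 13.4, 24.1 and 32.7 rpmm at 15 months. It fell by 1.58 (SE 0.49, limma adjusted p = 0.0213), with the highest library at 15 months above the lowest at 3 months. miR-144-5p measured 1.01, 0.905, 2.15, 0.321, 1.01 and 1.03 rpmm at 3 months and 0.198, 0.153, 0.509, 0.287, 0.393 and 0.463 rpmm at 15 months. It fell by 0.59 (SE 0.21, limma adjusted p = 0.0470) on a scale that the pseudocount compresses at this level. miR-486a-5p did not pass (-0.72, SE 0.33, limma adjusted p = 0.102). The summed miRNA values were lower at 15 months as well, at 127900 to 313140 rpmm against 241970 to 434210 rpmm. Scaled to that sum, miR-451a stood at -0.92 (limma adjusted p = 0.31) and the skin calls were lost, and with median-ratio scaling it stood at -0.97 (limma adjusted p = 0.117). In the marker lists 1 of 18 further red blood cell miRNAs was called, miR-486a-3p (-1.61), and 0 of 8 white blood cell, 0 of 6 muscle and 0 of 4 vessel miRNAs. Their median changes were -0.60, -0.63, -1.41 and -0.79, beside -0.51 for all miRNAs, and their part in the result was not tested.

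In limb muscle miR-451a measured 987.6, 1701.6, 899.3, 453.3, 544.5 and 1146 rpmm at 3 months and 576.6, 121.6, 85.6, 584.0 and 351.5 rpmm at 15 months. The groups overlapped, since 2 of 5 libraries at 15 months were above the lowest 2 at 3 months. It fell by 1.72 (SE 0.63, limma adjusted p = 0.0443). The library of 85.6 rpmm had a depth of 3.40 M reads and held miR-486a-5p at 118 rpmm, the highest limb muscle value. Over all members there, miR-144-3p stood at -1.25, miR-144-5p at -0.71 and miR-486a-5p at 0.34, none past the threshold. With median-ratio scaling miR-451a stood at -1.10 (limma adjusted p = 0.103), with the sequencing plate in the model at -1.15 (adjusted p = 0.42), and without the library of 85.6 rpmm at -1.32 (adjusted p = 0.207). The call was also lost when any of 5 other libraries was left out. In the lists, 2 of 18 further red blood cell miRNAs were lower, miR-16-5p (-2.06) and miR-92a-3p (-1.39), with 1 of 8 of white blood cells, miR-142a-3p (-1.72), 1 of 7 of muscle, miR-208b-3p (-1.56), and 0 of 4 of vessels, and their part in the result was not tested.

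**Figure D4:**
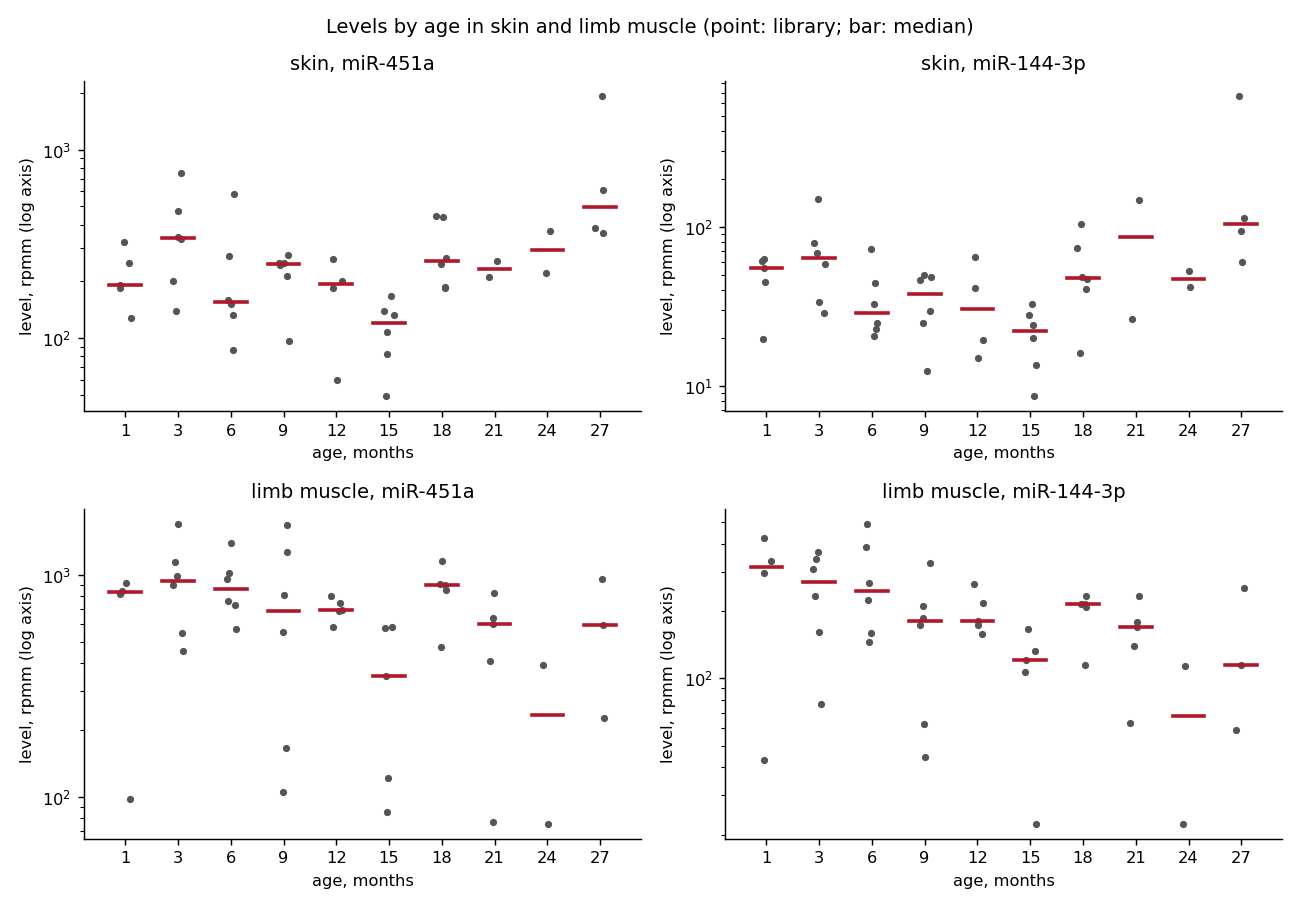
Levels (rpmm, log axis) in skin and limb muscle at each age in months, 1 point a library and a bar at the median. In skin the 15-month libraries lie at 49.3 to 167.7 rpmm of miR-451a against 139.8 to 751.7 rpmm at 3 months, and neighbouring ages overlap both.

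At 21 against 3 months 0 of 52 tests of a member passed, where 3.86% of all tests did. In limma 7 had an unadjusted p under 0.05, 5 of them higher at 21 months, and edgeR on recovered reads called 4, miR-144-3p in GAT (-1.89) and miR-144-3p (-2.32), miR-144-5p (-2.04) and miR-451a (-2.64) in heart, where 1 library of 3 months held miR-451a at 31345 rpmm. The limma differences were -1.12 to 1.09 for miR-451a, and their 95% intervals had a median reach of 1.17 to each side, more than a change by a factor of 2 (1 on this scale). In SCAT, 1 of the 4 libraries of 3 months lay closest to bone by its profile and held 162 rpmm of miR-451a. Without it miR-144-5p (-1.44, limma adjusted p = 0.0063), miR-451a (-1.42, adjusted p = 0.031) and miR-486a-5p (-1.05, adjusted p = 0.038) were called lower in SCAT at 21 months.

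At 1 against 3 months 0 of 52 passed, where 1.76% of all tests did. In limma 12 had an unadjusted p under 0.05, 5 higher and 7 lower at 1 month, and edgeR called 3, all in heart and lower (-3.09, -2.66 and -2.83). The limma difference of largest size was miR-144-3p in spleen, 2.26 higher at 1 month (SE 0.73, limma adjusted p = 0.0940), with medians of 4411 and 1428 rpmm in 6 libraries each. Of the spleen libraries of 3 months, 1 had a depth of 3.34 M reads, a summed miRNA value of 43675 rpmm and only 114 rpmm of miR-451a.

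Females were compared with males of up to 21 months in a model that held age. Of 58 tests of a member 2 passed, both lower in females, where 2.57% of all tests did so in that direction. In limb muscle miR-144-5p had a median of 1.46 rpmm in 13 female (0 to 3.33 rpmm) and 2.20 rpmm in 29 male libraries (0 to 5.59 rpmm) and was lower by a log2 difference of -0.61 (SE 0.19, limma adjusted p = 0.0440), with 5.15% of all miRNAs called lower there. miR-451a (-0.87) and miR-144-3p (-0.73) did not pass in that tissue (limma adjusted p = 0.102 and 0.108). In SCAT miR-486a-5p had a median of 0.953 rpmm in 11 female (0.400 to 2.18 rpmm) and 2.10 rpmm in 27 male libraries (0.315 to 5.51 rpmm) and was lower by a log2 difference of -0.63 (SE 0.20, limma adjusted p = 0.0364), with 7.26% of all miRNAs called lower there. The sexes overlapped in both. Both calls were lost under each of the 3 other scalings (limma adjusted p = 0.107 to 0.126 in limb muscle and 0.107 to 0.198 in SCAT), and that of limb muscle with the sequencing plate in the model (adjusted p = 0.386). Under the same 3 scalings miR-486a-5p in marrow was called higher in females (0.64 to 0.73), where it stood at 0.54 without them (adjusted p = 0.166). At an unadjusted p under 0.05 there were 16, of which 14 were lower in females. No share of all miRNAs at that threshold is given here, and the members of the cluster moved together. The count is therefore not read as a trait of the members. The median change of all miRNAs ran from -0.29 in SCAT to 0.27 in kidney.

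The marker lists had few calls in these 2 comparisons, and not all in the direction of the members. In limb muscle 1 of 18 further red blood cell miRNAs was lower in females, miR-20a-5p (-0.88), where 5.15% of all miRNAs were. None of the other 3 lists had a call there. In SCAT miR-486b-5p was lower (-0.61) while miR-182-5p (3.24), miR-183-5p (2.43) and miR-96-5p (2.21) of the same list were higher. These 3 share a cluster that epithelial and sensory cells also use. Of the vessel miRNAs miR-126a-3p was lower (-0.93), and the part of these markers in the result was not tested.

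The third question was whether joining young and aged mice moved the levels. With the reported scaling, all libraries and no pairs in the model, a member passed in none of the 4 contrasts. HA minus IA, which the study calls rejuvenation (REJ), gave 0 of 23 calls, where 0.965% of all tests passed, and 1 unadjusted p under 0.05, miR-486a-5p in GAT (-0.77). HY minus IY, accelerated aging (ACC), gave 0 of 23, where 0% of all tests passed, with 0 unadjusted p under 0.05. IA minus IY gave 0 of 23 (8.13% of all tests) with 4 unadjusted p under 0.05, and HA minus HY 0 of 23 (9.81% of all tests) with 4. By edgeR there were 0 calls in each of the 4. The differences for miR-451a over the 6 tissues were -0.42 to 0.76 in REJ, -0.42 to 0.28 in ACC, -1.10 to 0.30 in IA minus IY and -0.89 to 0.56 in HA minus HY, with median 95% intervals reaching 0.87 to 0.93 to each side. REJ and IA minus IY share the IA mice, and ACC and IA minus IY share the IY mice.

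The unadjusted p-values of IA minus IY were those of GAT, for miR-451a (-1.10), miR-144-3p (-1.12) and miR-144-5p (-0.72), and of heart for miR-486a-5p. The last measured 52.95 ± 18.81 rpmm in IA and 35.06 ± 12.01 rpmm in IY (SD, n = 8 each), a log2 difference of 0.55 (SE 0.23, limma adjusted p = 0.0906).

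The 4 unadjusted p-values of HA minus HY were all in limb muscle, where both partners of all 7 pairs had a library. miR-451a measured 353 rpmm in the aged and 734 rpmm in the young partner of pair 1, 260 and 911 in pair 11, 701 and 1267 in pair 12, 490 and 725 in pair 14, 242 and 325 in pair 2, 844 and 832 in pair 20, and 256 and 767 in pair 5. It was lower in the aged partner in 6 of 7 pairs. miR-144-3p measured 86.8 and 160 rpmm in pair 1, 53.8 and 129 in pair 11, 124 and 218 in pair 12, 87.9 and 121 in pair 14, 45.97 and 65.05 in pair 2, 144 and 219 in pair 20, and 56.9 and 182 in pair 5, and was lower in the aged partner in 7 of 7. miR-144-5p was lower in 6 of 7. miR-486a-5p went the other way in 5 of 7 pairs, with 50.9 against 17.1 rpmm in pair 11 and 41.3 against 9.18 rpmm in pair 5 as the widest gaps, and 12.1 against 12.2 rpmm in pair 1.

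Without the pairs in the model the differences were -0.89 for miR-451a (SE 0.36, limma adjusted p = 0.104), -0.88 for miR-144-3p (SE 0.37, adjusted p = 0.130), -0.63 for miR-144-5p (SE 0.23, adjusted p = 0.0714) and 0.60 for miR-486a-5p (SE 0.29, adjusted p = 0.211). With the pair as a block the same differences passed for miR-451a (SE 0.20, limma adjusted p = 0.00955), miR-144-3p (SE 0.17, adjusted p = 0.00288) and miR-144-5p (adjusted p = 0.0426) but not for miR-486a-5p (adjusted p = 0.189), and 9.49% of all miRNAs tested were called lower in that fit. That fit held the HA and HY libraries only, whereas the fit without the pairs took its spread from all 4 groups. The smaller SE can therefore not be credited to the pair alone. With the pair as a random block and all 4 groups kept, only miR-144-5p passed (limma adjusted p = 0.0381), while miR-451a (adjusted p = 0.0546) and miR-144-3p (adjusted p = 0.0721) did not. The median change of all miRNAs there was -0.0045. In the isochronic limb muscle the levels of miR-451a were 565 ± 262 rpmm in IA and 678 ± 243 rpmm in IY (SD, n = 8 each). In the other 5 tissues the aged partner was lower in miR-451a in 4 of 7 pairs (GAT), 3 of 7 (heart), 3 of 6 (kidney), 2 of 7 (liver) and 2 of 5 (MAT). HA and HY mice differ in age, in the age of the partner and in the mouse line, and these cannot be told apart here.

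In the limb muscle of these animals the marker lists had few calls in HA minus HY without the block, 1 of 17 red blood cell miRNAs lower, 1 of 7 muscle miRNAs higher, and 0 of 7 white blood cell and 0 of 4 vessel miRNAs. The aged partner's library was the shallower in 6 of 7 pairs, with the widest gaps in pairs 11 (18.9 against 26.3 M reads) and 5 (16.3 against 29.5 M). The exception was pair 20 (25.9 against 19.2 M), which was also the pair where miR-451a was not lower in the aged partner. The part of depth in the result was not tested.

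**Figure D5:**
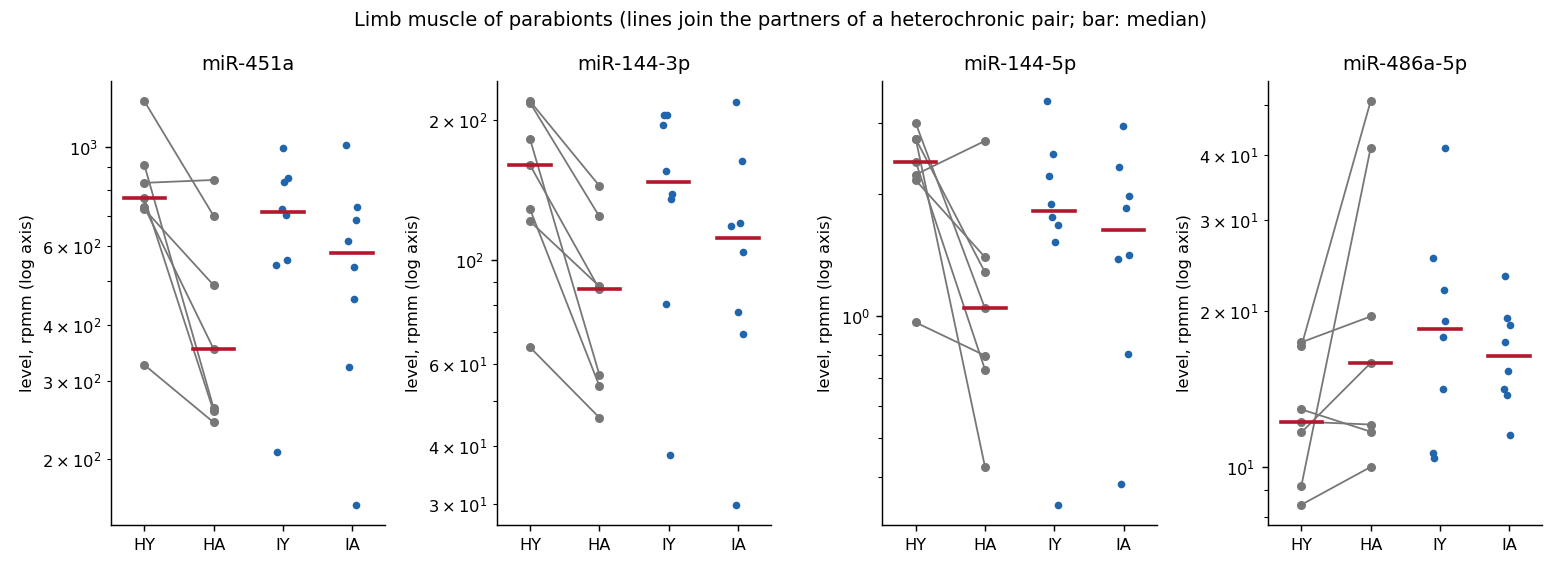
Levels of the 4 miRNAs (rpmm, log axis) in limb muscle of parabionts by group, 1 point a mouse, a bar at the median and a line joining the partners of each heterochronic pair. miR-144-3p is lower in the aged partner in 7 of 7 pairs and miR-451a in 6 of 7.

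Last, since partners of one cohort gave several tissues from the same mouse, the levels were compared between tissues of a mouse with the group means removed. Of 55 tests of a member in a pair of tissues 0 passed, where 5.52% of all tests did, and 11 had an unadjusted permutation p under 0.05. Pearson's r was positive in 14 of 15 tissue pairs for miR-451a (-0.01 to 0.49, median 0.19), in 14 of 15 for miR-144-3p (-0.04 to 0.51) and in 14 of 15 for miR-144-5p (-0.20 to 0.53), and in 7 of 10 for miR-486a-5p. The median r of all miRNAs was also positive in most tissue pairs, from -0.09 in kidney and liver to 0.38 in heart and kidney. Since the members of the cluster move together in a library, their counts are not separate results. The lowest adjusted permutation p was 0.108, for miR-144-5p in heart and kidney over 29 mice (r = 0.38, unadjusted permutation p = 0.0499; rho = 0.33, permutation p = 0.0952), where the median r of all miRNAs was also 0.38. The highest r of miR-486a-5p was 0.53 in GAT and kidney (29 mice, unadjusted permutation p = 0.0014, adjusted 0.176; rho = 0.54), and 0.61 without the 2 mice farthest from the median in GAT. Partners share a circulation, so the mice are not fully independent. Over 26 to 30 mice a pair of tissues, a mouse high in these miRNAs in one tissue was not shown to be high in another.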

How the data were processed

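Small RNA was sequenced in tissues of aging C57BL/6JN mice and of parabionts. The deposited values are a signal, reads per 1000000 mapped reads (rpmm), that the authors made with miRMaster from reads mapped with Bowtie to miRBase entries; per the labels the genome build was mm10. The authors left out libraries of few aligned reads and RNAs under 1 rpmm in every library. From the smallest step in each library, whole reads were recovered for 100% of the values outside the miRNAs and for 99.0% (aging) and 98.8% (parabiosis) of the miRNA values, with a tolerance of 0.05 reads. These reads gave the depth and served edgeR (4.0.16) as an alternative only. Each value is a share of its library, so it depends on the other RNAs counted there.

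Log2(rpmm + 1) of all miRNAs of at least 1 rpmm in at least 10% of a tissue's libraries (for the comparison of tissues, in at least 1 tissue) was fitted with limma 3.58.1 (eBayes with trend, R 4.3.3), and p-values were adjusted by Benjamini-Hochberg over all of these miRNAs. With the pseudocount of 1, differences of low miRNAs are understated. Correlations used two-sided permutation p-values from 100000 shuffles (Python 3.11.15, numpy 2.4.6, scipy 1.17.1). The labels do not say which aging libraries come from which animal, so p-values there measure the spread between libraries. No 2 libraries were equal (0 pairs), and 2 deposited columns that match no single labelled sample were not used. Groups came from the titles and labels; title numbers do not tie tissues of the aging cohort to a mouse. In the parabiosis cohort the pair number marks joined animals. Deviations of HA and HY partners from their group means correlated by -0.69 to 0.86 (median 0.24) over 39 pairs of libraries, with 25 over 0.1, and in limb muscle by -0.01 to 0.63, with 5 of 7 over 0.1.

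The members and lists were chosen with earlier results of these data known. Named beside the members were the 5 miRNAs of highest r over tissue medians and over libraries, among miRNAs with a median of at least 10 rpmm in a tissue, and the called miRNAs of lists for red blood cells, white blood cells, muscle and vessels, at most 4 a list, in contrasts with a called member. The alternatives were other scalings, pseudocounts of 0.1 and 10, other filters, plate, pool, title set and pair as covariates, males only, and single libraries left out. Sequences are RefSeq entries; miR-486a was matched to gene coordinates only. Simulated data were used to check a limma and edgeR comparison of ages within a tissue, and the permutation test of correlation with age. The other models were not checked in this way.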

Additional observations from a re-analysis of the deposited data

Results flagged for a closer look

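Among 632 groups of 4 to 10 libraries by member, 60 (9.49%) had a highest or lowest library farther from the rest than Dixon's 95% limit on the log2 scale, where chance gives about 1 in 20. In the groups whose values are printed above, these were the spleen library 01 of 3 months, with 114 rpmm of miR-451a, 46.1 rpmm of miR-144-3p and 0 rpmm of miR-144-5p (which at its depth of 3.34 M allows up to 0.899 rpmm), and the limb muscle library 33 of 15 months, with 22.3 rpmm of miR-144-3p and 118 rpmm of miR-486a-5p. The limb muscle library 11 of 3 months held 38.7 rpmm of miR-486a-5p. Among the parabionts, the limb muscle of HY 2B held 325 rpmm of miR-451a and 0.963 rpmm of miR-144-5p, and that of IY 17B held 208 and 0.341 rpmm. miR-486a-5p stood apart at 7.12 rpmm in GAT of HY 14B, 7.01 rpmm in kidney of IA 7B, 2.55 rpmm in kidney of IY 10B and 0.280 rpmm in liver of IY 15A.

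Whether changes with age differed between tissues was tested by limma interaction, adjusted over all miRNAs of a pair of tissues. The share of member tests that passed was below that of all miRNAs at 21 months and near it at 1 month. The calls are therefore listed without being read as a trait of the members. At 21 against 3 months 5 of 364 tests of a member passed (4.51% of all tests), each with spleen. The differences of log2 changes were, for miR-144-3p, -3.26 in GAT minus spleen and, for miR-144-5p, -2.54 in GAT, -1.81 in limb muscle, -2.10 in marrow and -2.18 in SCAT, each minus spleen. At 1 against 3 months 17 of 364 passed (3.35% of all tests), 13 of them with spleen. For miR-144-3p minus spleen they were -3.75 in bone, -3.37 in GAT, -3.57 in heart, -3.36 in lung and -3.55 in MAT. For miR-144-5p minus spleen they were -3.04 in bone, -2.29 in GAT, -2.50 in heart, -2.39 in limb muscle, -2.54 in lung, -2.10 in marrow and -2.17 in MAT, and for miR-486a-5p -1.97 in bone. The other 4 were miR-451a in bone minus brain (-2.57), brain minus MAT (2.79) and kidney minus MAT (3.01), and miR-144-5p in bone minus kidney (-2.44). Without the spleen library 01 of 3 months, an alternative added after seeing the data, the 21-month comparison had 0 calls and the 1-month comparison 9, of which 4 were among the 17, those without spleen. With the title set as a covariate there were 0 and 10 calls, 8 of them among the 17. In the parabiosis contrasts 0 of 60 tests passed in each.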

How the results depend on the processing

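Counts of member tests past the threshold moved as follows and stayed within 1.5 times in the other settings tried, where the calls themselves could still differ. For later ages against 3 months (4 calls) it was 1 with median-ratio scaling, 2 without a filter and 2 with the title set as a covariate, 8 without libraries closest to another tissue, 10 in males only, 10 by edgeR, and 1 to 5 when single libraries were left out (1 without skin library 22 of 3 months, 2 without skin library 12 or 46 of 15 months). Among the calls gained were higher levels at the later age, in MAT at 27 months with either scaling to summed miRNA values (miR-451a 1.33, miR-144-5p 1.05, and miR-144-3p 1.68 without the members in the sum), in spleen at 6 months in males only (miR-144-3p 4.27, miR-144-5p 4.02), in brain for miR-486a-5p with plate (0.80 at 12 months) or title set (0.69 at 27 months), and by edgeR in skin at 27 months (miR-144-3p 1.74) and spleen at 9 months (miR-486a-5p 3.18). For 21 against 3 months (0) it was 1 with median-ratio scaling, 3 without libraries closest to another tissue, 4 by edgeR and 0 to 3 with single libraries left out (3 without SCAT library 16 of 3 months). For 1 against 3 months (0) it was 2 in males only, 3 by edgeR and 0 to 2 with single libraries of 1 month left out (2 without kidney 09, 1 without MAT 35, MAT 04 or spleen 33). For sex (2) it was 4 with median-ratio scaling, none of them among the 2. In females miR-144-5p and miR-451a in GAT and miR-144-5p in skin were then lower, and miR-486a-5p in marrow was higher. The count for sex was 0 with a pseudocount of 0.1 or without a filter. Keeping only miRNAs that averaged 10 rpmm or more also gave 0, but left both of the 2 untested. Over all libraries of the tissue, miR-144-5p in limb muscle averaged 1.98 rpmm and miR-486a-5p in SCAT 2.19 rpmm. For age correlation (0) it was 1 with either scaling to summed miRNA values, 1 in males only, 1 without 24 and 27 months, and 3 by adjusted p in place of rho. For IA minus IY (0) it was 1 with either scaling to summed miRNA values and 0 to 1 with single libraries left out, where miR-486a-5p in heart was called without IY 15A or IA 19B. REJ, ACC and the comparison of tissues of a mouse gave 0 throughout.

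For HA minus HY (0) the pair as a replicate block, fitted to the HA and HY libraries only, gave 3 calls, all in limb muscle. The pair as a random block gave 1 (miR-144-5p), and leaving out single libraries gave 0 to 2, with 2 without HA 20A or HY 2B in limb muscle. The block changed no other call of a member. In skin at 15 months miR-451a lost its call when library 22 of 3 months was left out (-1.37), miR-144-3p in 3 of 12 and miR-144-5p in 10 of 12 such fits. With a pseudocount of 10 rpmm the sign relative to miR-451a turned for miR-486a-5p in BAT (0.54), kidney (0.18) and liver (0.31) and for miR-144-3p in brain (0.38). For the single values named here, 375 alternatives kept the direction and the side of the threshold, 19 crossed it upward, 72 fell below it and 4 turned. Depth limits miR-144-5p and miR-486a-5p most, which were at 0 in 24 and 16 aging libraries. The cause of these changes was not tested.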
